A study of Homo sapiens with 12 samples.

Results

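The genes described here are the nitric oxide synthases and the DUOX/NOX oxidases, with the maturation factors and the membrane subunit that belong to them. They were picked out by gene symbol, with earlier results of these data known. All 9 were found among the 58735 genes of the count table: the 3 synthases NOS1, NOS2 and NOS3, the 2 dual oxidases DUOX1 and DUOX2, their maturation factors DUOXA1 and DUOXA2, the oxidase subunit CYBA, and NOX4. RNA was sequenced from 2 immortalized human keratinocyte lines, TIGK from gingiva and HaCaT from skin, grown in the same keratinocyte medium. Each line was left untreated or received 5 mM H2O2 for 3 h, which gave 4 groups of 3 libraries (TIGK control, TIGK H2O2, HaCaT control and HaCaT H2O2). Each tissue was represented by 1 line, so the site of origin and the line cannot be told apart. The sources used here do not say whether the 3 libraries of a group came from separate cultures, and p-values then measure only the spread between libraries, which may be technical.

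Nitric oxide synthases turn arginine into nitric oxide and citrulline. They need calmodulin and the cofactor tetrahydrobiopterin. NOS1 is the neuronal form, NOS2 the form induced in inflammation and NOS3 the endothelial form. NADPH oxidases pass electrons across a membrane to oxygen. NOX4 and the dual oxidases release mainly H2O2, the agent that was added to these cells. A dual oxidase leaves the endoplasmic reticulum in active form only together with its maturation factor, DUOX1 with DUOXA1 and DUOX2 with DUOXA2, and CYBA (p22phox) is the membrane partner that stabilizes NOX1, NOX2, NOX3 and NOX4.

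The libraries held 30426401 to 49034244 counted reads (median 34684154.5). Replicates differed by more than sampling noise. By a chi-square statistic of counts over genes, 2 libraries lay farthest from the others of their group, which was described and not tested. The chi-square per degree of freedom of HaCaT H2O2 replicate 3 was 29.2 and 19.6 against the other two libraries, which gave 9.70 against each other, and that of TIGK control replicate 3 was 15.4 and 12.0, where the other two gave 5.45. Without HaCaT H2O2 replicate 3 the number of members called in the response of HaCaT went from 4 to 1. It also went to 1 without HaCaT control replicate 3, and to 2 without HaCaT control replicate 1 or HaCaT H2O2 replicate 2. All 7 keratinocyte markers were detected, with KRT5 and KRT14 the most abundant of them. Of all counts, mitochondrial genes took a median of 3.41% in TIGK control, 1.40% in TIGK H2O2, 6.19% in HaCaT control and 3.39% in HaCaT H2O2 libraries, and control and treated libraries of a line did not overlap. This share moved with the treatment in both lines, and its part in the results was not tested, although leaving out the mitochondrial genes left the number of members called as it was in each comparison. Unless stated otherwise, a level is a normalized read count, scaled by edgeR's TMM factors to the mean library size. Changes are log2 fold changes of edgeR's quasi-likelihood test over 16618 genes, and a gene was called at an adjusted p under 0.01. Of the 9 members, 8 passed the filter of a mean of 10 reads per library and NOX4 did not.

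The lines differed most in which synthase they held. NOS1 was the main synthase of HaCaT and was close to the bottom of the range in TIGK. The 3 untreated HaCaT libraries held 5826, 5854 and 6180.5 normalized counts of NOS1 (ENSG00000089250, chr12:117208142-117452170 of GRCh38, minus strand), and the 3 treated ones held 2919, 2776 and 2184.5. Untreated TIGK held 38.6, 52.9 and 36.6, and treated TIGK held 33.7, 18.1 and 44.3. No HaCaT library overlapped with any TIGK library, and the treated HaCaT libraries all lay below the untreated ones. The mean was 139-fold higher in untreated HaCaT than in untreated TIGK (log2 fold change 7.12, SE 0.16, adjusted p 1.48e-17), and 82.0-fold higher after H2O2 in both (6.32, SE 0.17, adjusted p 1.26e-16).

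NOS2 showed the opposite distribution. TIGK control libraries held 134, 149 and 162 raw reads of NOS2 (ENSG00000007171, chr17:27756766-27800499, minus strand), TIGK H2O2 libraries held 131, 118 and 161, and all 6 HaCaT libraries held 0. With 3 reads taken as the floor of each HaCaT library, NOS2 was at least 53.7-fold lower in untreated HaCaT and at least 39.0-fold lower after H2O2. The call passed the limit in both comparisons (adjusted p 3.65e-10 untreated and 9.71e-10 after H2O2). A pseudogene copy, NOS2P1, behaved the other way, with 0 reads in every TIGK library, 10 to 15 in HaCaT control and 2 to 15 in HaCaT H2O2. How reads that match several copies were counted is not given in the sources used here, so the split between NOS2 and its copies is uncertain.

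NOS3 (ENSG00000164867, chr7:150990995-151014588, plus strand) was low in both lines. Raw counts were 66, 56 and 81 in TIGK control, 66, 90 and 76 in TIGK H2O2, 71, 48 and 51 in HaCaT control, and 51, 62 and 55 in HaCaT H2O2. The fitted difference between lines was -0.41 untreated (SE 0.25, adjusted p 0.147; 95% interval -0.93 to 0.10) and -0.24 after H2O2 (adjusted p 0.391), and neither passed the limit. ATG9B, an autophagy gene on the opposite strand, shares 786 exonic bases with NOS3 in GENCODE v44. ATG9B averaged 194 normalized counts in TIGK control and 7.35 in HaCaT control, while NOS3 lay between 58.1 and 84.7 in the first group and between 50.4 and 54.3 in the second. Use of strand in the counting is not given in the sources used here, so reads of the shared bases cannot be assigned to one gene or the other.

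**Figure D1:**
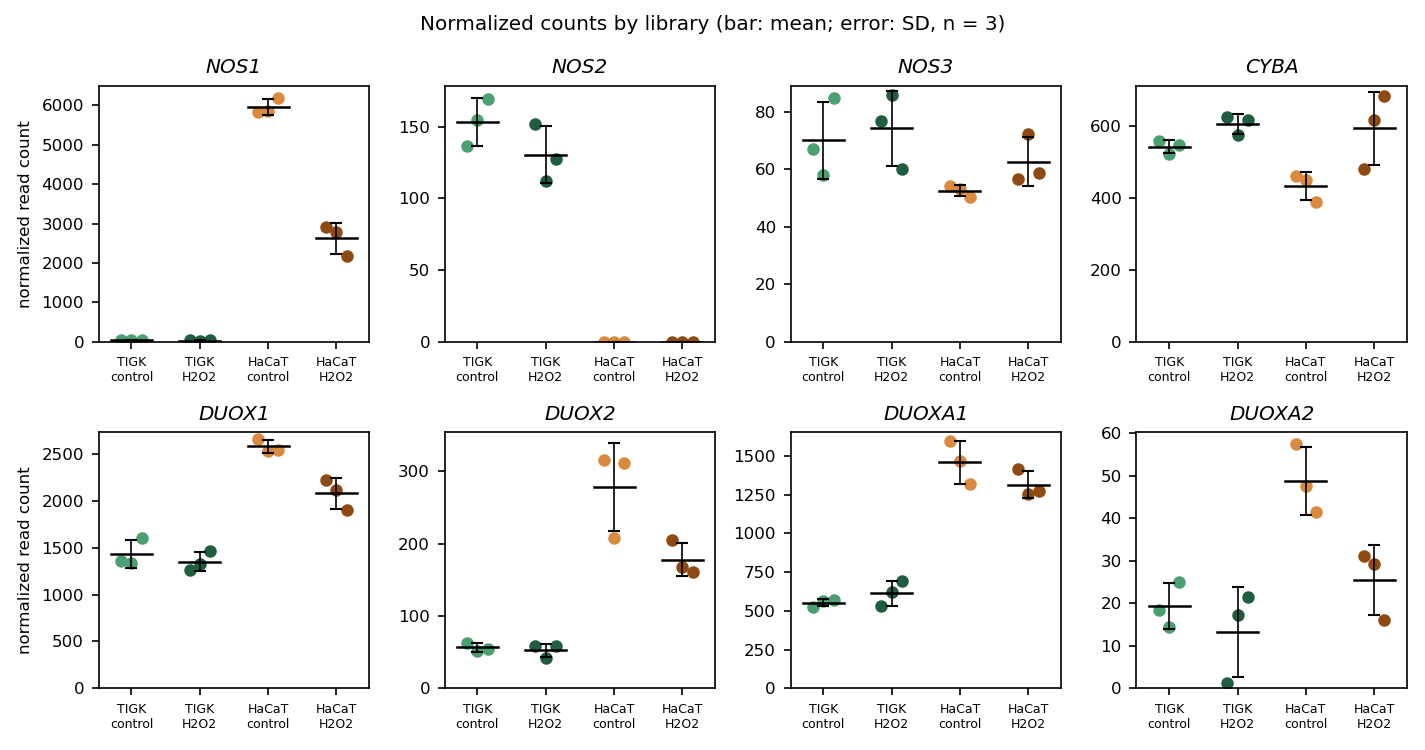
Normalized read counts (vertical axis, starting at 0) of the 8 detected members in the 4 groups. Points are libraries, horizontal bars are means and error bars are SD of 3 libraries. NOS1 is at 2184.5 or more in every HaCaT library and at 52.9 or less in every TIGK library, and NOS2 is at 0 in all 6 HaCaT libraries.

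In RNA from whole cultures, fewer cells that express a gene and less of its RNA per cell cannot be told apart. Markers of cell types known for these synthases, and of others a culture could hold, were read beside these levels. Of 4 neuronal markers, 2 passed the filter. The summed level of the 4 was 88.5 to 107 normalized counts in TIGK control and 91.4 to 108 in TIGK H2O2. It was 399 to 413 in HaCaT control and 316 to 371 in HaCaT H2O2, mostly from the microtubule protein gene MAP2. SYP was also higher in HaCaT (101 in control and 71.0 with H2O2) than in TIGK (27.2 and 15.2). RBFOX3 went the other way, with 19.9 in TIGK control and 9.92 in TIGK H2O2 against 0.74 and 7.44 in the HaCaT groups. The synaptic gene SNAP25 averaged under 1 in each group. Of 4 endothelial markers, 1 passed, and the sums were 8.54 to 61.9 over all libraries. The sums were 35.2 to 61.9 in HaCaT control and 13.6 to 30.5 in TIGK control. VWF, the marker that passed, averaged 45.6 in HaCaT control and 21.7 in HaCaT H2O2 against 12.0 and 8.38 in the TIGK groups. PECAM1 and TEK were higher in TIGK, at 5.25 or less in each group. CDH5 was at 0 in both HaCaT groups and in TIGK control. Of 5 leukocyte and phagocyte markers, only CSF1R passed. It averaged 142 in TIGK control and 168 in TIGK H2O2 against 6.07 and 2.59 in the HaCaT groups, and so moved with NOS2, whereas the pan-leukocyte marker PTPRC averaged 2.19 or less in every group. Of 4 melanocyte markers 1 passed, with sums of 27.8 to 93.8 over all libraries. Of 6 fibroblast markers 3 passed, with sums of 800 to 847 in TIGK control and 926 to 938 in TIGK H2O2. The sums were 319 to 418 in HaCaT control and 311 to 396 in HaCaT H2O2, mostly from COL1A1 in every group. DCN averaged 197 in TIGK control and 236 in TIGK H2O2 against 4.91 and 0.71 in the HaCaT groups, and so also moved with NOS2. PDGFRB averaged 13.1 and 27.0 in the TIGK groups against 1.68 and 4.40. COL1A2 was at 0 in all libraries. The part of CSF1R, MAP2, VWF and the fibroblast markers in the results was not tested.

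Per gene length the synthases could be ranked against each other. The FPKM here (a level: reads per kilobase of exon, scaled by the normalized library size) put NOS1 at 12.5 ± 0.41 in HaCaT control and 5.52 ± 0.82 in HaCaT H2O2, above NOS3 at 0.24 ± 0.01 and 0.29 ± 0.04. In TIGK control NOS2 led with 0.97 ± 0.10, then NOS3 with 0.32 ± 0.06 and NOS1 with 0.09 ± 0.02, and the ranges of the 3 genes did not overlap. NOS1 made up 98.1% ± 0.13 of the 3 synthases' summed level in HaCaT control and 6.57% ± 1.60 in TIGK control. The sum itself was 12.8 ± 0.41 and 1.38 ± 0.14 (SD, n = 3). Among the 16618 genes tested, NOS1 stood above 78.6% of genes in HaCaT control and above 4.15% in TIGK control.

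The dual oxidases and their maturation factors lie in 1 cluster of 72927 bases, chr15:45092650-45165576 of GRCh38. The order is DUOX2 (ENSG00000140279, minus strand), DUOXA2 (ENSG00000140274, plus), DUOXA1 (ENSG00000140254, minus) and DUOX1 (ENSG00000137857, plus), so that each oxidase and its maturation factor are read away from each other. In RefSeq (GRCh38.p14) 153 bases separate the start of DUOX2 from that of DUOXA2, and 114 bases separate the starts of DUOXA1 and DUOX1. For DUOXA1 this is the start at 45129879, and a further RefSeq start at 45123043 was not used. In the gene coordinates of the count table the genes instead overlap, DUOX2 and DUOXA2 by 24 bases and DUOXA1 and DUOX1 by 6. All 6 motifs named below were searched on both strands in the 153 and 114 bases between the RefSeq starts. The space between DUOX2 and DUOXA2 held 1 TATA box (TATAAA), which is found in 6.82% of 35116 RefSeq promoters in a stretch of that length before the start, and 1 E-box (CANNTG, in 44.8%). It held no match to AP-1 (TGANTCA, 4.23%), the STAT motif (TTCNNNGAA, 3.71%), the cAMP element (TGACGTCA, 1.42%) or the antioxidant element (TGANNNNGC, 23.8%). The space between DUOXA1 and DUOX1, with a GC content of 80.7%, held none of the 6. The matches did not overlap, and a match is a description of letters only. The TATA box and its flanks are shown because this was the rarer of the 2 matches and was found at only one of the oxidase pairs. The box, in capitals, ends 27 bases before the DUOXA2 start, and the 30 bases shown are chr15:45114282-45114311 on the plus strand.
DUOX2/DUOXA2: cgcccacgctgcTATAAAaggggtcccgcg

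All 4 genes of the cluster had higher means in HaCaT, and 3 passed the test in both comparisons of the lines. DUOX1, the more abundant oxidase, held 2659, 2538 and 2547 normalized counts in HaCaT control against 1354, 1337 and 1609 in TIGK control, a 1.80-fold higher mean (log2 fold change 0.85, SE 0.08, adjusted p 1.72e-08). After H2O2 the libraries held 2228, 2120 and 1902 in HaCaT and 1259, 1329 and 1462.5 in TIGK (0.62, SE 0.08, adjusted p 1.29e-06). The lines did not overlap in either state.

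DUOX2 differed more, from a lower level. HaCaT control held 315, 208 and 311 normalized counts and TIGK control 63.1, 51.8 and 54.4, a 4.93-fold higher mean in HaCaT (2.30, SE 0.21, adjusted p 7.85e-09). HaCaT H2O2 held 205, 168 and 161 and TIGK H2O2 58.0, 41.9 and 57.8, a 3.39-fold higher mean (1.76, SE 0.21, adjusted p 4.33e-07). Again no library of one line reached the range of the other.

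DUOXA1, the partner of DUOX1, held 1594, 1464 and 1317 normalized counts in HaCaT control and 526, 564 and 571 in TIGK control (1.40, SE 0.10, adjusted p 2.09e-10). With H2O2 the values were 1416.5, 1253 and 1274 in HaCaT and 530.3, 621 and 690 in TIGK (1.09, SE 0.10, adjusted p 6.69e-09). The lines did not overlap.

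DUOXA2, the partner of DUOX2, had few reads in all 4 groups. Raw counts were 75, 43 and 42 in HaCaT control, 28, 25 and 15 in HaCaT H2O2, 18, 14 and 24 in TIGK control, and 1, 18 and 27 in TIGK H2O2. The untreated lines did not overlap after normalization, but the difference of 1.34 (SE 0.50) did not pass the limit (adjusted p 0.0236). It passed without TIGK H2O2 replicate 1, the library with 1 read (adjusted p 0.00414), and in the fits to both untreated groups alone (0.0037 with edgeR and 0.00292 with DESeq2). After H2O2 the difference was 0.87 (SE 0.54, adjusted p 0.156). In GENCODE v44, 706 exonic bases, 27.7% of DUOXA2, lie on the opposite strand of DUOXA1, whose counts were far higher, so that counts of DUOXA2 depend on how reads in the shared bases were assigned.

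Neighbouring genes were read for context and were chosen after their values were seen. SORD, the nearest tested protein-coding gene on the DUOX2 side, averaged 4146 normalized counts in TIGK control and 4716 in HaCaT control. SHF, the nearest on the DUOX1 side, averaged 99.2 and 18.9, the reverse order of the 4 genes between them.

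**Figure D2:**
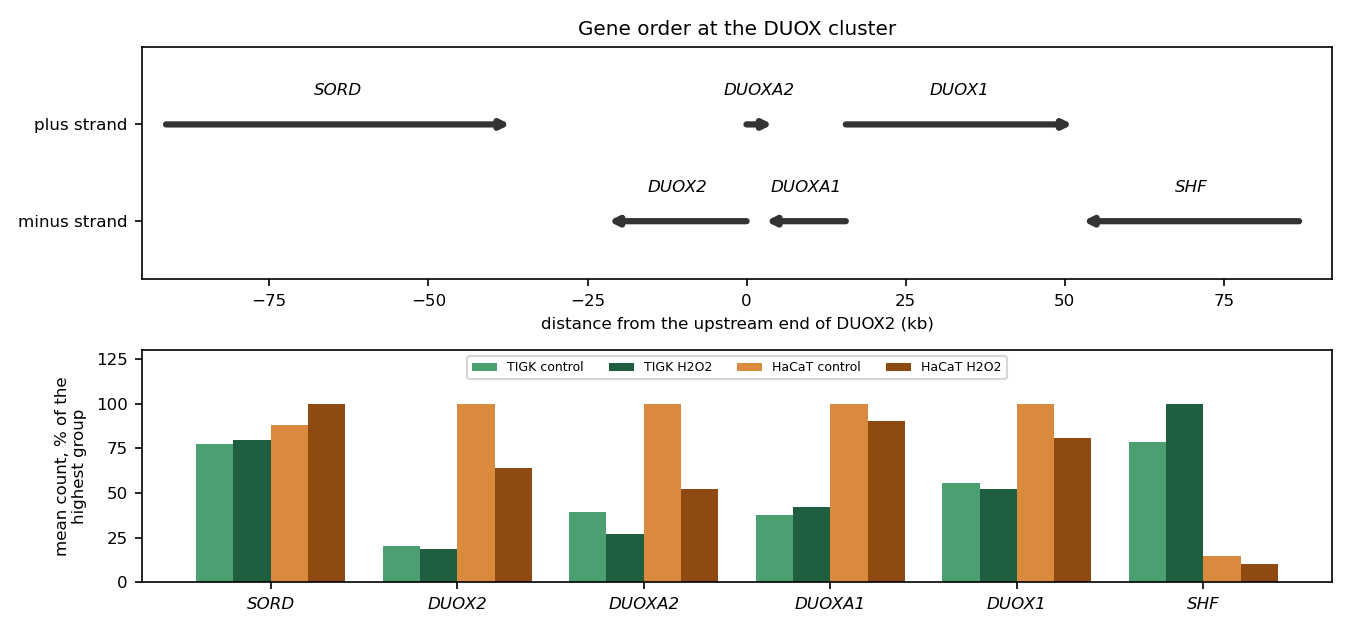
Gene order at the DUOX cluster, with arrows in the direction of reading and the horizontal axis in kb from the upstream end of DUOX2, and below it the mean normalized count of each gene per group as a percent of its highest group (3 libraries a group). HaCaT control is the highest group for DUOX2, DUOXA2, DUOXA1 and DUOX1, and TIGK H2O2 for SHF.

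CYBA (ENSG00000051523, chr16:88643283-88651152, minus strand) was nearly level between the lines. It held 557, 522 and 547 normalized counts in TIGK control and 462, 449 and 387 in HaCaT control. The groups did not overlap, yet the difference of -0.32 (SE 0.12) missed the limit (adjusted p 0.0184). It passed in 5 of 22 other settings, which were 4 other models or scalings (adjusted p 0.00413 to 0.00919) and the fit without HaCaT H2O2 replicate 1 (0.00931). After H2O2 the difference was -0.03 (SE 0.11, adjusted p 0.845; 95% interval -0.27 to 0.21). NOX4 (ENSG00000086991, chr11:89324356-89498187, minus strand) had 0 reads in all 12 libraries, which allows at most an FPKM of 0.0104 to 0.0158 at 3 reads a library. That limit covers counting error only.

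Between untreated lines, 4 of the 8 members tested were called higher in HaCaT, against 29.1% of all genes tested, and 1 was called lower, against 30.8%. The median log2 fold change of the members was 1.09, also with NOS2 at its bound, and that of all genes was -0.01. After H2O2, 4 were again called higher (background 30.2%) and 1 lower (29.8%), with a median of 0.75 for the members and 0.02 for all genes. Both comparisons called NOS1, DUOX1, DUOX2 and DUOXA1 higher and NOS2 lower.

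**Figure D3:**
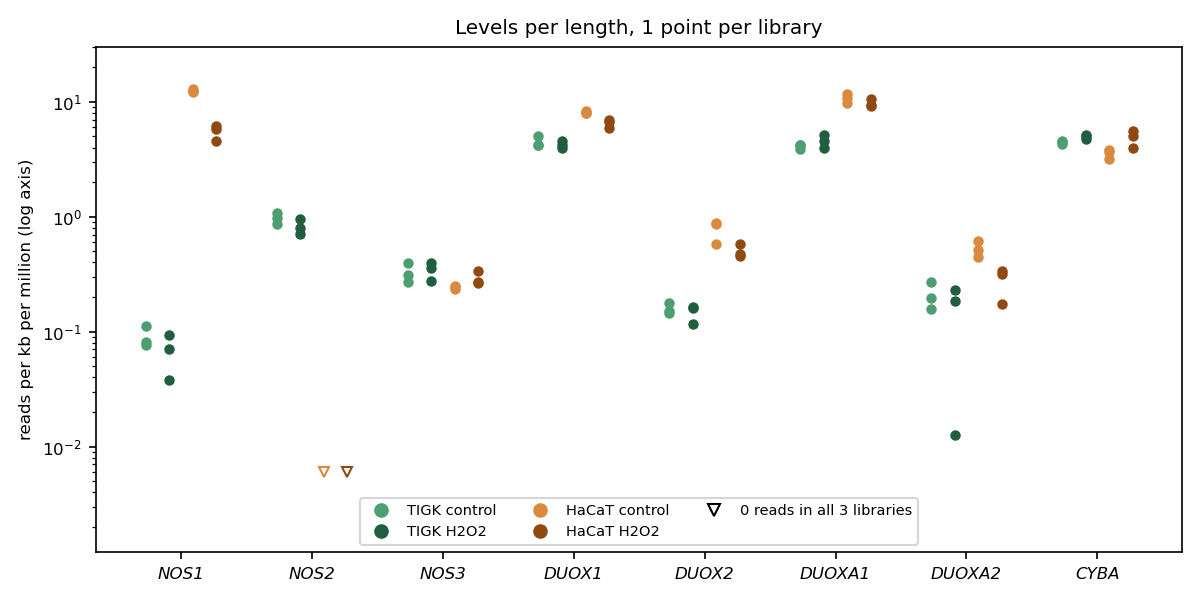
FPKM (log axis) of 8 members in each library, coloured by group, with open triangles where all 3 libraries held 0 reads. NOS1, DUOX1 and DUOXA1 lead in HaCaT control, whereas DUOX1, CYBA and DUOXA1 lead in TIGK control.

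Per length, DUOX1, DUOXA1 and CYBA were of like level in TIGK control (FPKM of 4.50 ± 0.48, 4.10 ± 0.18 and 4.45 ± 0.15). There the range of DUOX1 overlapped with those of CYBA and DUOXA1. In HaCaT control the order was NOS1, DUOXA1 (10.8 ± 1.03), DUOX1 (8.10 ± 0.21), CYBA (3.55 ± 0.33), DUOX2 (0.78 ± 0.17), DUOXA2 (0.53 ± 0.09) and NOS3, and only DUOX2 and DUOXA2 overlapped among neighbours in that order. After H2O2 in HaCaT DUOXA1 led with 9.74 ± 0.66, and DUOX1 (6.54 ± 0.52), NOS1 and CYBA (4.87 ± 0.84) overlapped with their neighbours. In TIGK H2O2 the ranges of CYBA, DUOXA1 and DUOX1 ran into each other, from 4.96 ± 0.22 to 4.24 ± 0.32.

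The balance of each oxidase with its partner was taken as a log2 ratio of counts per kb, which needs no library scaling. DUOX1 to DUOXA1 was 0.13 ± 0.13 in TIGK control, -0.10 ± 0.09 in TIGK H2O2, -0.41 ± 0.11 in HaCaT control and -0.58 ± 0.09 in HaCaT H2O2 (SD, n = 3). The ratio was lower in HaCaT by a mean difference of -0.51, and no HaCaT library reached a TIGK library (two-sided exact permutation test within treatment, p = 0.005, the smallest that 400 arrangements allow, adjusted p 0.015 over 6 tests). The ratio was also lower after H2O2, by a mean of -0.19 over both lines (exact permutation test within line, p = 0.02, adjusted p 0.04). This difference by treatment held its side of 0.05 in 4 of 12 fits that left out a library each (adjusted p 0.03 to 0.08), while its size stayed between -0.23 and -0.16.

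DUOX2 to DUOXA2 had no such order. Its means were -0.39 ± 0.39, 0.64 ± 2.16, 0.54 ± 0.39 and 0.88 ± 0.41 in TIGK control, TIGK H2O2, HaCaT control and HaCaT H2O2. Neither the line (difference 0.59, exact permutation p = 0.405, adjusted p 0.405) nor the treatment (0.69, p = 0.335, adjusted p 0.402) passed the test. The spread in TIGK H2O2 came from the library with 1 read of DUOXA2, at a ratio of 3.13 against -0.68 and -0.53. Without it the difference between lines was 1.21 (adjusted p 0.01).

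DUOX2 remained the minor oxidase in both lines. DUOX2 to DUOX1 was -4.82 ± 0.23 in TIGK control, -4.85 ± 0.27 in TIGK H2O2, -3.40 ± 0.32 in HaCaT control and -3.71 ± 0.11 in HaCaT H2O2, and was higher in HaCaT by 1.27 (exact permutation p = 0.005, adjusted p 0.015). As a share of the summed level of both oxidases, DUOX1 made up 96.6% ± 0.54 in TIGK control and 91.3% ± 1.67 in HaCaT control. The difference by treatment was -0.17 (p = 0.25, adjusted p 0.375; exact permutation test).

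**Figure D4:**
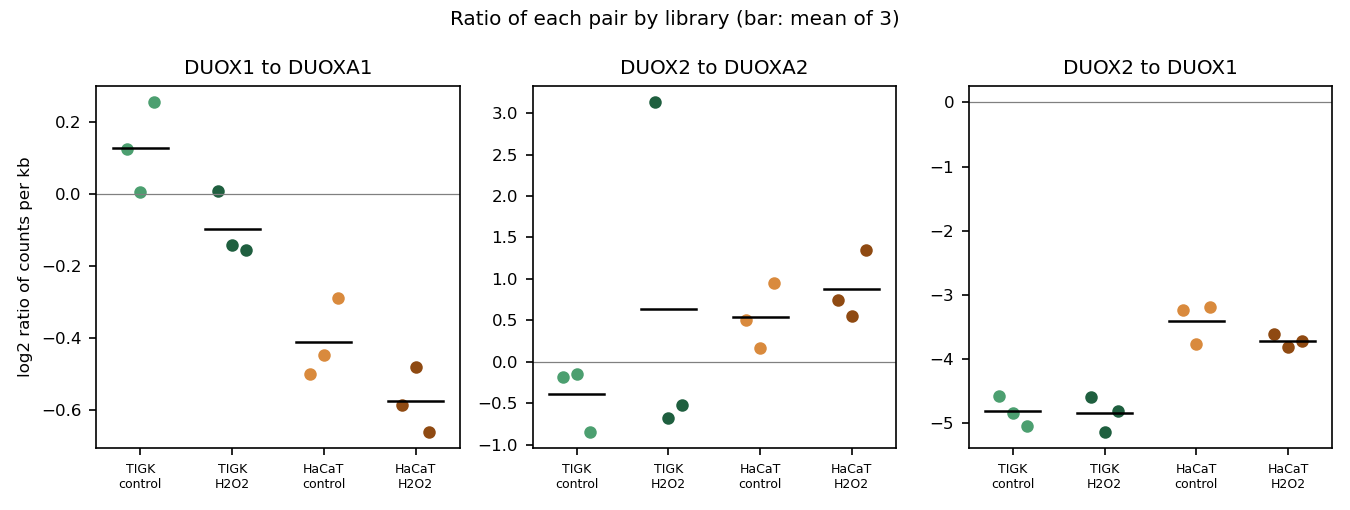
Log2 ratio of counts per kb for DUOX1 to DUOXA1, DUOX2 to DUOXA2 and DUOX2 to DUOX1 (vertical axes differ in range). Points are libraries and bars are means of 3. The HaCaT libraries lie below the TIGK libraries for DUOX1 to DUOXA1 and above them for DUOX2 to DUOX1.

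In HaCaT, NOS1 and both dual oxidases were lower and CYBA was higher after 3 h of H2O2. Of the 4, NOS1 changed most, to a mean 2.27-fold lower (log2 fold change -1.18, SE 0.11, adjusted p 7.33e-08). DUOX1 fell by 0.31 on the log2 scale (SE 0.08, adjusted p 0.00359) and DUOX2 fell by 0.65 (SE 0.19, adjusted p 0.00815). CYBA held 481, 616 and 681 normalized counts after H2O2, all above the 387 to 462 of the untreated libraries, and rose by 0.45 (SE 0.12, adjusted p 0.00353). DUOXA1 (-0.15, SE 0.09, adjusted p 0.197), DUOXA2 (-0.94, SE 0.49, adjusted p 0.123; 95% interval -1.97 to 0.08) and NOS3 (0.25, SE 0.25, adjusted p 0.439) did not pass. Of the 7 members tested in HaCaT, 1 was thus called higher, against 18.9% of all genes, and 3 lower, against 15.2%. The median of the 7 was -0.31 and that of all genes 0.04.

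NOS1 kept its call in all 22 other settings (-1.30 to -1.06), and the other 3 calls did not. DUOX1 was not called without HaCaT control replicate 1 (adjusted p 0.0175), HaCaT control replicate 3 (0.0102) or HaCaT H2O2 replicate 3 (0.017), DUOX2 without any of these or HaCaT H2O2 replicate 2 (0.032 to 0.0486), and CYBA without HaCaT control replicate 3, HaCaT H2O2 replicate 2 or 3, or TIGK H2O2 replicate 2 or 3 (0.01 to 0.0256). DUOX2 was also not called with library totals alone as the scaling (0.0102), and CYBA was not when the HaCaT groups were fitted alone (0.0194 with edgeR and 0.0115 with DESeq2).

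In TIGK no member was called after H2O2 by edgeR, against 10.2% of all genes called higher and 12.9% called lower. DESeq2 called 0 as well, and 0 of the 8 had an unadjusted p under 0.05. The largest fitted changes were in DUOXA2 (-0.48, SE 0.54) and NOS1 (-0.39, SE 0.27, adjusted p 0.292; 95% interval -0.96 to 0.19), both at low counts. DUOX1 changed by -0.08 (SE 0.08; interval -0.25 to 0.09), DUOX2 by -0.10 (SE 0.23), DUOXA1 by 0.15 (SE 0.10), CYBA by 0.16 (SE 0.11), NOS2 by -0.23 (SE 0.23) and NOS3 by 0.08 (SE 0.24). Their median was -0.09, beside 0.01 for all genes.

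The responses of the lines were compared directly by an interaction term, TIGK minus HaCaT, and no member passed the limit with edgeR or DESeq2, against 2.32% of all genes called positive and 2.98% negative. An unadjusted p under 0.05 was found for 2 of 7, NOS1 (0.80, SE 0.30, p 0.0154, adjusted p 0.093) and DUOXA1 (0.30, SE 0.14, adjusted p 0.164). NOS1 passed in 1 of 20 other settings, the fit with no filter on low counts (adjusted p 0.000979). For DUOX1 the difference was 0.23 (95% interval -0.01 to 0.46), for DUOX2 0.54 (-0.07 to 1.16) and for CYBA -0.30 (-0.64 to 0.04). The calls made in HaCaT alone are therefore not shown to differ from TIGK.

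**Figure D5:**
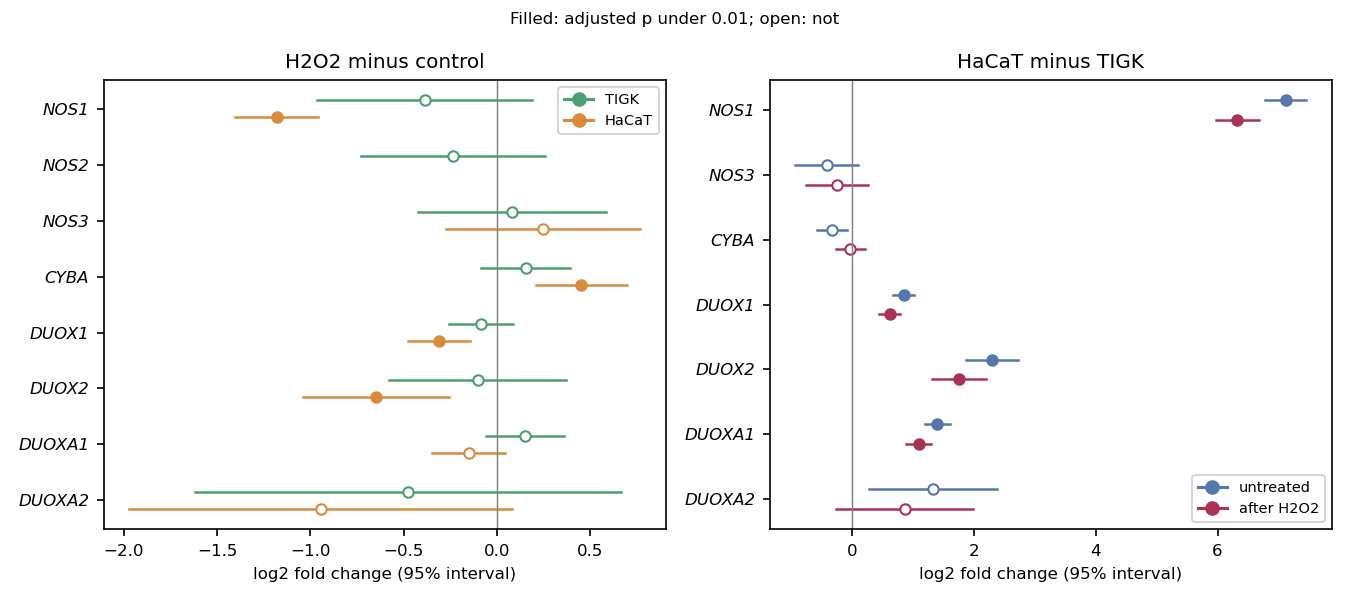
Log2 fold changes with 95% intervals (lines) for H2O2 against control in each line, left, and for HaCaT against TIGK in each state, right. Filled points passed an adjusted p of 0.01. NOS2 has no point for HaCaT or for the difference of the lines, since HaCaT held 0 reads. In HaCaT NOS1, DUOX1 and DUOX2 lie below 0 and CYBA above it.

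The genes that work with these enzymes were read in 7 lists of 50 genes, 37 of which were tested. The other NOX enzymes were scarce: of NOX1, CYBB, NOX3 and NOX5, only NOX1 passed the filter, with 26 reads at most, and it was called in no comparison. Among 8 tested oxidase subunits and partners, 6 were higher in untreated HaCaT and 1 was lower, where 29.1% and 30.8% of all tested genes were. POLDIP2 was among the 6 (0.15, adjusted p 0.00985) and lost its call in 15 of 22 other settings. The count was 5 without any one of the TIGK control or HaCaT control libraries, or without TIGK H2O2 replicate 1. The GTPase gene RAC2 averaged 536 ± 41.1 in TIGK control and 3031 ± 77.7 in HaCaT control (2.50), whereas NCF4, a subunit gene of the phagocyte oxidase, was at 22.8 ± 8.76 and 1.42 ± 1.24 (-3.79). After H2O2 in HaCaT 4 of these 8 rose, CYBC1 (0.33) among them, and 1 fell, against 18.9% and 15.2% of all tested genes. Of the 4, the GTPase genes RAC1 (0.21) and RAC2 (0.23) were both not called without HaCaT control replicate 1 or 2, TIGK control replicate 2 or TIGK H2O2 replicate 2 (adjusted p 0.0112 to 0.0339), which left 2 of 8. Over 22 other settings RAC1 lost its call in 7 and RAC2 in 16. Both genes lost it when the HaCaT groups were fitted alone, with edgeR or DESeq2. In TIGK 2 of 8 rose, RAC2 by 0.36 and CYBC1 by 0.27, and none fell, where 10.2% of all tested genes rose. CYBC1 was not called in TIGK without TIGK control replicate 2 or 3 or TIGK H2O2 replicate 1 (adjusted p 0.0141 to 0.0181). CYBC1 encodes the chaperone of the CYBB and CYBA complex. NCF1 and its near copies NCF1B and NCF1C were at 25 reads or less, and their counts cannot be assigned with certainty. LPO, the lactoperoxidase that uses H2O2, averaged 59.6 ± 6.85 in TIGK control and 58.8 ± 7.51 in TIGK H2O2 and had 0 reads in HaCaT, and it was the only one of 4 haem peroxidases to pass the filter.

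Of 7 tested genes of arginine supply and NOS inhibitor breakdown, 6 were lower in untreated HaCaT and 1, DDAH1, was higher, against background shares of 30.8% and 29.1%. The count of lower genes was 5 without TIGK control replicate 2 or without HaCaT control replicate 3. ASS1, which rebuilds arginine from citrulline, averaged 3582 ± 186 in TIGK control and 201 ± 30.7 in HaCaT control (-4.15), and the arginine transporter gene SLC7A2 averaged 3608 ± 509 and 60.3 ± 14.7 (-5.91). After H2O2 both arginine transporter genes were lower in each line: SLC7A2 fell by 2.17 in TIGK and by 0.90 in HaCaT, and SLC7A1 fell by 0.59 and by 0.56. The HaCaT change of SLC7A2 (adjusted p 0.00496) was not called without HaCaT control replicate 3 or HaCaT H2O2 replicate 2 or 3 (0.0126 to 0.036) or when the HaCaT groups were fitted alone (0.025). The median of the 7 genes was -0.92 between untreated lines, 0.04 for the response of TIGK and 0.15 for that of HaCaT.

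Of 6 tested genes of tetrahydrobiopterin synthesis and recycling, 2 were higher and 3 lower in untreated HaCaT, against 29.1% and 30.8% of all tested genes. GCH1, the first enzyme of the synthesis, averaged 815 ± 78.1 in TIGK control and 320 ± 60.9 in HaCaT control (-1.34). It rose by 1.00 in HaCaT after H2O2 (SE 0.13, adjusted p 4.84e-06), to 642 ± 36.9, and was at 692 ± 70.4 in TIGK H2O2 (-0.24, SE 0.12, adjusted p 0.127). In HaCaT 4 of the 6 rose and none fell, among them SPR (0.71) and PCBD1 (0.72), and in TIGK 2 rose, SPR (0.54) and PCBD1 (0.48), where 18.9% and 10.2% of all tested genes rose. The medians were 0.58 in HaCaT and 0.20 in TIGK.

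Among 10 tested partners of the synthases, 1 was higher and 2 were lower in untreated HaCaT, against background shares of 29.1% and 30.8%. After H2O2 the dynein light chain gene DYNLL1 rose in both lines (0.57 in TIGK and 0.68 in HaCaT), as did the chaperone gene HSP90AA1 (0.41 in TIGK and 0.47 in HaCaT). In all, 2 of the 10 rose in TIGK (background 10.2%) and none fell. In HaCaT 4 rose (background 18.9%) and 1 fell (background 15.2%). The gene that fell was NOSTRIN (-1.79, adjusted p 0.0065), which was not called without any one of the HaCaT control libraries or HaCaT H2O2 replicate 3 (0.0121 to 0.036). RAC1 and RAC2 in HaCaT, HSP90AA1 in HaCaT, DDAH1 and POLDIP2 between the lines, and GUCY1A1 lie outside the rule for named genes and were named after their values were seen. Of 4 tested genes of NO and nitrosothiol signalling, 1 was higher and 2 were lower in untreated HaCaT, against background shares of 29.1% and 30.8%. After H2O2, 1 rose in TIGK and 2 in HaCaT and none fell, against the same shares of 10.2% and 18.9%. The call in TIGK was that of ADH5 (0.24), which breaks down S-nitrosoglutathione, and it was lost without any of the TIGK control libraries, TIGK H2O2 replicate 1 or 2, or HaCaT control replicate 2 (adjusted p 0.0105 to 0.0264), which left 0 of 4. Of the calls in HaCaT, that of CYB5R3 (0.27) was lost without HaCaT control replicate 1 (0.0116), which left 1. GUCY1A1, a subunit of the soluble guanylate cyclase that senses nitric oxide, was at 0 in all 12 libraries.

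Over all 7 lists, 11 of 37 genes (29.7%) were higher and 15 (40.5%) lower in untreated HaCaT, against 29.1% and 30.8% of all tested genes, and 12 and 13 after H2O2, against 30.2% and 29.8%. The response of TIGK had 7 higher and 2 lower of 37, and that of HaCaT 15 higher and 4 lower of 36, against background shares of 10.2% and 12.9% in TIGK and 18.9% and 15.2% in HaCaT. Of 36 differences of responses 0 were positive and 2 negative, GCH1 and SLC7A2, against 2.32% and 2.98%.

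For each tested member the genes with the most similar pattern over the 12 libraries were listed, by Pearson's r of log2 CPM. For NOS1, NOS2, DUOX1, DUOX2 and DUOXA1, which were called between the lines in both states, these correlations mostly describe that gap. NOS3, DUOXA2 and CYBA were not called between the lines, and what their correlations rest on was not tested. NOS1 was closest to KCNMA1, PIK3C3 and KLF12 (r = 0.997 for each). DUOX1 was closest to WDR37, AP4E1 and KIAA1217 (0.990 to 0.991), DUOXA1 to SPTB, ALS2CL and SLC16A5 (0.992 to 0.993), and DUOX2 to AL117329.1, FRY and TRAK1 (0.986 to 0.988). NOS2 was closest to CRISPLD1, COL25A1 and CHDH, CYBA to MZT2A, NDUFS8 and COMMD1 (0.962 to 0.970), DUOXA2 to CYSRT1, AC107027.3 and HOXC-AS2 (0.908 to 0.924), and NOS3 to UNKL, PECR and RELA (0.877 to 0.885). No member of the family was among the 3 genes closest to another.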

How the data were processed

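RNA of 12 libraries was measured by sequencing. The authors deposited raw read counts per gene for GRCh38, and the submitters' processing notes name HISAT2 (versions 2.0.5 and 2.0.0), StringTie 1.3.3b and featureCounts 1.5.0-p3, without roles. The annotation release, strand use and handling of reads with several matches are not given in the sources used here. Tables of the authors' own fold changes and p-values, deposited for 4 comparisons, were not used. The treatment labels spell the agent differently by replicate, whereas the protocol names H2O2 for all. Groups came from sample titles.

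The main test was that of edgeR 4.0.16 under R 4.3.3 (TMM, quasi-likelihood, 1 mean per group over all libraries, checked on simulated counts) for genes with a mean of at least 10 reads, adjusted over all of them by Benjamini-Hochberg at 0.01. DESeq2 1.42.0, other scalings, filters and limits, a replicate block and each library left out were alternatives. Ratios used a prior count of 0.5. Where a group held 0 reads, a floor of 3 counts per library gave the bound. Figures used Python 3.11.15 and matplotlib 3.10.9. Named genes were all members, at most 3 called genes per list and comparison by size of change, and the 3 most similar genes per member. Members and lists were chosen with earlier results of these data known. Some genes of the lists enter the counts but are not reported here by name.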

Additional observations from a re-analysis of the deposited data

Results flagged for a closer look

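GCH1 and SLC7A2 were listed because the test of the difference between the responses of the lines, TIGK minus HaCaT, passed the limit. The difference was -1.24 for GCH1 (SE 0.17, adjusted p 0.000112), which rose in HaCaT and did not pass the limit in TIGK, and it kept its call in every other setting tried. It was -1.27 for SLC7A2 (SE 0.28, adjusted p 0.00598), which fell in both lines, and this call was lost in 7 of 12 fits that left out a library each (adjusted p 0.0106 to 0.0373), namely any TIGK H2O2 library, HaCaT control replicate 1 or 2 and HaCaT H2O2 replicate 1 or 2. Groups of 3 libraries were too small for a test of single libraries that stand apart.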

How the results depend on the processing

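Of 822 values of single members under other settings, 787 kept their direction and their side of the limit. The 2 comparisons of the lines called 5 members in the main analysis, and 5 to 6 and 5 when 1 library at a time was left out. The response of HaCaT had 4 members called and 1 to 4 when 1 library was left out: 2 without HaCaT control replicate 1, 1 without HaCaT control replicate 3, 2 without HaCaT H2O2 replicate 2 and 1 without HaCaT H2O2 replicate 3. It had 2 called without the deepest library and the library with 1 read of DUOXA2, a setting chosen after seeing the data. The difference of the responses called 0 members, and 1, NOS1, with no filter on low counts.

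Leaving out a library reversed some small changes that had not passed the limit. In the response of TIGK the ranges were -0.013 to 0.25 for NOS3, -0.12 to 0.0066 for DUOX1, -0.17 to 0.065 for DUOX2 and -0.97 to 0.0025 for DUOXA2, which ended at 0.0016 in the setting chosen after seeing the data. They were -0.14 to 0.065 for CYBA between lines after H2O2 and -0.22 to 0.033 for NOS3 in the difference of responses. The log2 ratio of DUOX1 to DUOXA1 differed by treatment by -0.23 to -0.16, and that of DUOX2 to DUOXA2 between lines by 0.26 to 1.21. The causes were not tested.

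Same-numbered libraries of different groups correlated at -0.03 to 0.03 in their deviations from the group means. Not every library correlated best with its own number. These values showed no pairing by number, but they cannot exclude it, since counting noise can hide a shared deviation. A fit with the replicate number as a block called 0, 4, 5, 5 and 0 members in the 5 comparisons, as without it. Among listed partner genes it lost the calls of ADH5 in TIGK, RAC2 and NOSTRIN in HaCaT, POLDIP2 between untreated lines and the SLC7A2 difference (adjusted p 0.0136). Low counts limit what can be said of NOS3, DUOXA2, and NOS1 and DUOX2 in TIGK.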
